A study of Mus musculus with 9 samples.

Results

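Reference genes are transcripts against which quantitative PCR (qPCR) results are scaled, and 9 genes in common use for this were examined in aging mouse kidney: Actb, Actg1, Gapdh, Hprt, Tbp, Ppia, Ywhaz, Pgk1 and Polr2a. A gene was taken from the probe sets that the array annotation listed with exactly 1 gene symbol, and the brightest such probe set over all arrays stood for it. By this rule 7 of the 9 genes were measured, out of 19938 genes on the array. Actg1 and Gapdh had only probe sets shared with other genes, and these were described separately. Whole kidneys of female wild type mice on a mixed FVB/C57BL6 background were compared, 5 at 96 weeks and 4 at 14 weeks of age, with 1 array per mouse. The mice were perfused before the kidneys were frozen, and the labels name no transgene or treatment at either age. By the methods each age had 5 mice. Only the 9 arrays labelled with an age entered here. Values are log2 expression levels, so that a difference of 1 is a doubling. In the study itself, qPCR values were scaled to Hprt and Actb.

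A qPCR measurement counts a transcript relative to a reference because the amount of RNA and the efficiency of reverse transcription vary from tube to tube. A good reference is abundant, present in every cell type of the tissue and steady between the groups compared. The genes chosen for this come from unrelated processes, among them the cytoskeleton, glycolysis, nucleotide salvage, protein folding and transcription, so that they need not move together. In whole kidney, a transcript level is an average over tubule, vessel, interstitial and immune cells, and a higher share of cells of a type cannot be told apart from more RNA per cell.

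The promoters of 3 of these genes are shown because they differ in the core motifs marked with capitals. Each runs from 250 bases before to 50 bases after the RefSeq start site (GRCm38.p6), and 7 of the 9 genes matched an entry. Capitals mark the CArG box in Actg1, the binding motif of serum response factor in actin promoters, and the TATA box letters TATAAA in Ppia.
Actg1 (chr11:120348446-120348745, minus strand): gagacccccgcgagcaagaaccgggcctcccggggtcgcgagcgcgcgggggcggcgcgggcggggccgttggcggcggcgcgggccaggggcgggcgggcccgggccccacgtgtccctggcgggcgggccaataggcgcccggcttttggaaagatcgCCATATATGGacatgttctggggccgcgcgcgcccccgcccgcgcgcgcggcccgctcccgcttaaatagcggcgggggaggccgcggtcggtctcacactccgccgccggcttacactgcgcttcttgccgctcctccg
Hprt (chrX:52987828-52988127, plus strand): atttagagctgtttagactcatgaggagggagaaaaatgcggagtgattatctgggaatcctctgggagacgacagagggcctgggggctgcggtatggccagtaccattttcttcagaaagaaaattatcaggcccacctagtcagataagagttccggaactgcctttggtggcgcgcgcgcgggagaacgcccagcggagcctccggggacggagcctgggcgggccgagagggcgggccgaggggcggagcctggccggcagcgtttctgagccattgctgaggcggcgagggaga
Ppia (chr11:6415617-6415916, plus strand): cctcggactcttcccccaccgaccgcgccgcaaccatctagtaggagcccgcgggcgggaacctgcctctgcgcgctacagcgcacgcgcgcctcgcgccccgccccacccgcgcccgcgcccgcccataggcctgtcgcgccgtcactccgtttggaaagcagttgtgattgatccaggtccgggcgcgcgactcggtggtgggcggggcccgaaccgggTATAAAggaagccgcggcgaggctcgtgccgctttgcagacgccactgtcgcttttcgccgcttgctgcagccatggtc
On either strand, the CArG box (CC, then 6 bases of A or T, then GG) occurred once in the Actg1 window, 90 bases before the start, as CCATATATGG. The motif was found in 1.63% of 32851 promoters of this length, and none of the other 6 matched members held it. TATAAA lay 29 bases before the start of Ppia and 33 bases before that of Polr2a, and was found in 13.6% of the promoters. The Hprt window held neither motif and held GGGCGG, the core of an Sp1 site, 3 times, a motif found in 35.7% of the promoters. GGGCGG does not set Hprt apart, since it occurred 6 times in the Actg1 window and 4 times in the Ppia window. These matches describe the letters in the windows only. Actb and Ywhaz are named only.

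Actb rose with age and the other 6 measured genes did not pass the test. Actb encodes cytoplasmic beta actin, a building block of actin filaments. Its level was 11.92, 11.76, 11.88, 12.20 and 11.69 in the 96 week old kidneys, against 11.35, 11.47, 11.35 and 11.50 in the 14 week old kidneys. Every old kidney lay above every young one, and replicate 4 at 96 weeks was the highest. The mean was 11.89 ± 0.20 at 96 weeks (SD, n = 5) and 11.42 ± 0.08 at 14 weeks (SD, n = 4). The difference was 0.48 on the log2 scale, a 1.39-fold rise (95% confidence interval 1.20 to 1.61, adjusted p = 0.020 from limma over all genes). By this test 1 of the 7 members passed, as higher, and 6.72% of all genes did, 4.31% as higher and 2.4% as lower. Groups without overlap were found for 1 of the 7 members, as higher, and for 13.3% of all genes, 7.49% as higher and 5.79% as lower. The rise was below the 1.5-fold change that the methods of the study set as a threshold, which with an unadjusted p under 0.05 was passed by none of the 7 members and by 1.6% of all genes, 1.28% as higher and 0.321% as lower.

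The call for Actb was close to the threshold. Without replicate 1 or without replicate 3 at 14 weeks the adjusted p was 0.057 in each case from limma, with a difference of 0.45, and by the methods' t-test it was 0.075. Without replicate 4 at 96 weeks, the highest, the difference was 0.40 (adjusted p = 0.017 from limma).

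**Figure D1:**
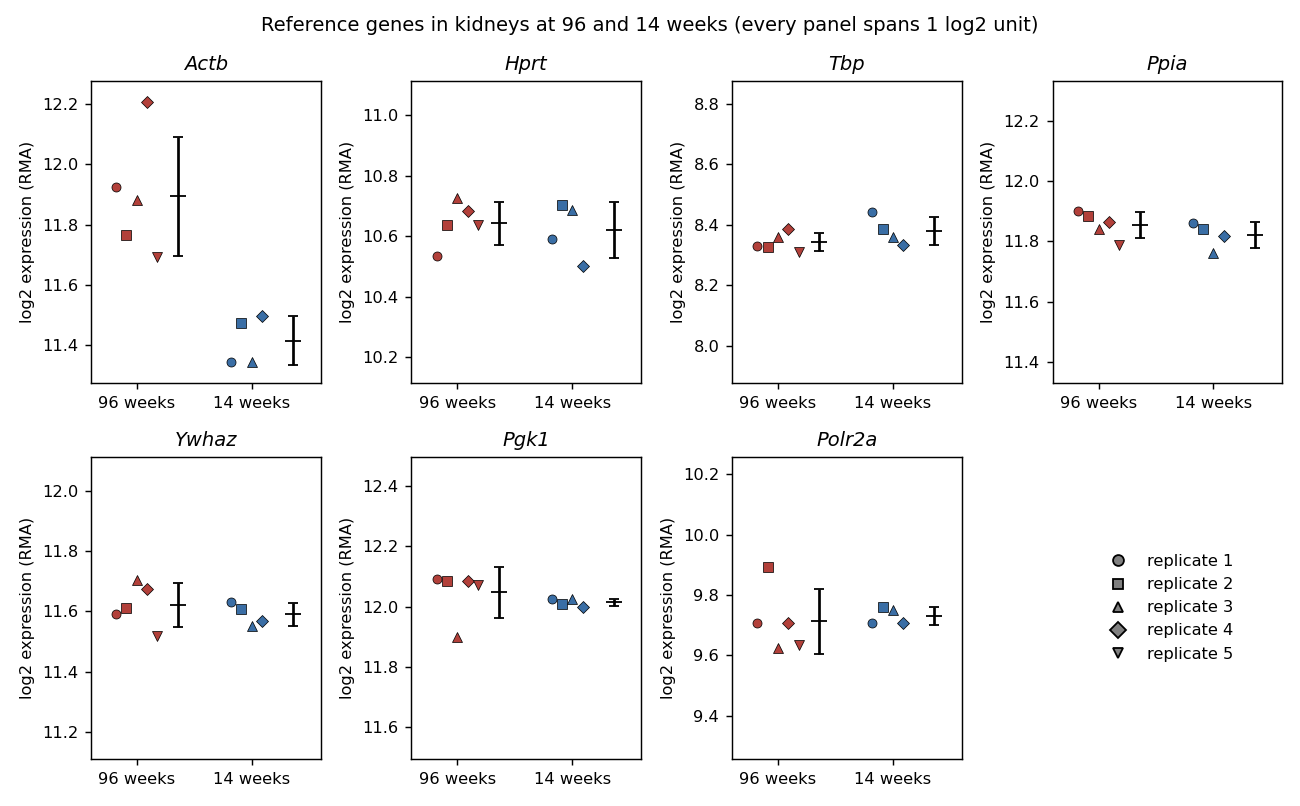
RMA log2 expression (vertical axis) of each of the 7 measured reference genes in kidneys of mice at 96 weeks (n = 5) and 14 weeks (n = 4); points are mice and bars are the mean with 1 SD. Actb is the only one of the 7 in which the ages do not overlap, at 11.69 to 12.20 against 11.35 to 11.50.

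The actin signal was also read by 4 probe sets that the annotation assigns to both Actb and Actg1, the gene of cytoplasmic gamma actin. The proteins and coding sequences of these genes are nearly identical, so that these probe sets cannot tell them apart. On the brightest of these 4, the level was 11.41, 11.43, 11.43, 11.52 and 11.39 in the 96 week old kidneys, against 11.06, 11.06, 11.06 and 11.01 in the 14 week old kidneys. On the dimmest, it was 10.54, 10.59, 10.51, 10.66 and 10.51 at 96 weeks, against 10.24, 10.18, 10.17 and 10.21 at 14 weeks. On each of the 4 every old kidney lay above every young one, with replicate 4 at 96 weeks the highest, as for the Actb probe set. When every one of 35557 probe sets was tested separately, all 4 passed, with differences of 0.37 to 0.42 (adjusted p = 0.0054 to 0.0077 from limma). In that fit 3.41% of probe sets passed as higher and 7.14% were higher without overlap, and the Actb probe set had an adjusted p of 0.032. The 4 probe sets share their targets and are not independent measurements. Actg1 alone has no value here.

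**Figure D2:**
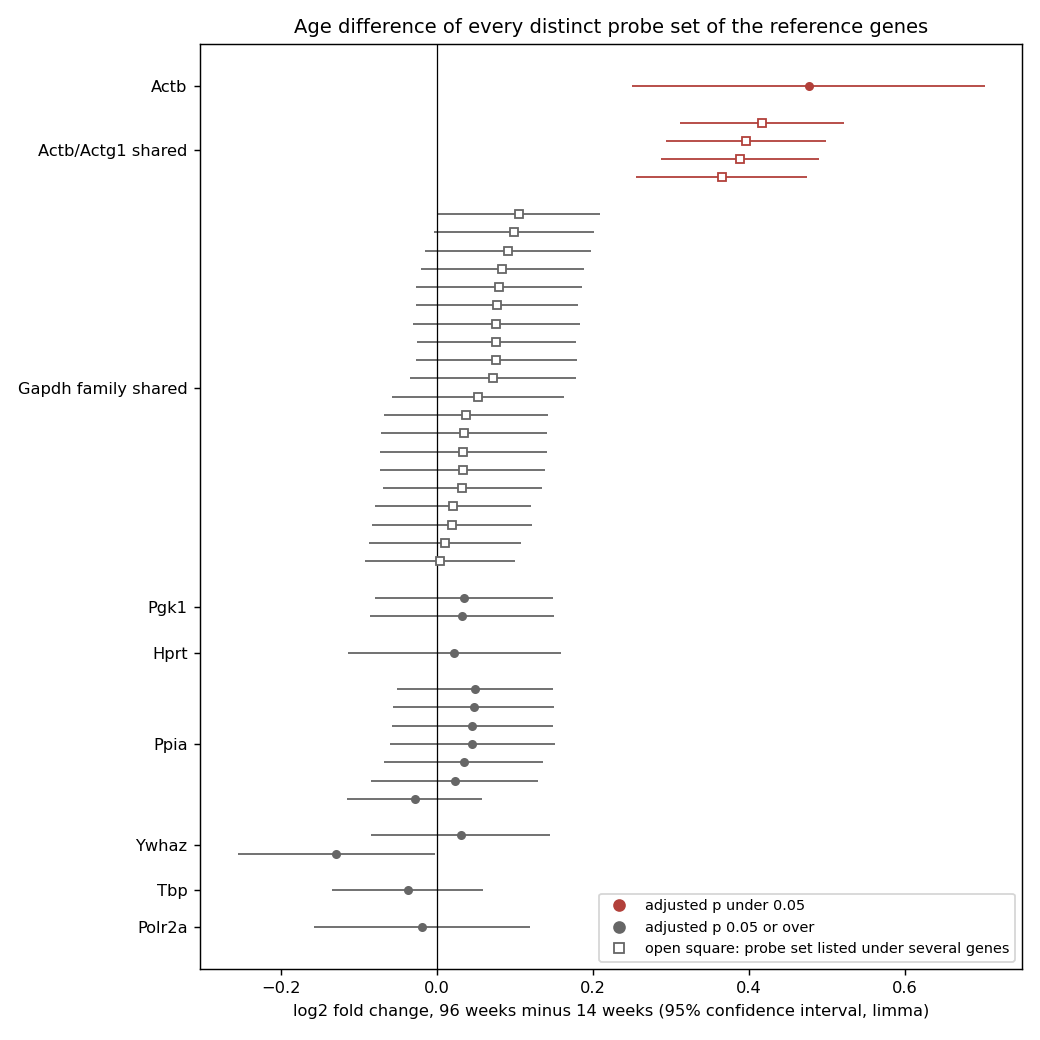
Age difference (96 minus 14 weeks, log2, with 95% confidence interval) of each distinct probe set listed with a reference gene; open squares are sets shared with other genes and red marks an adjusted p under 0.05. The 4 probe sets shared by Actb and Actg1 lie at 0.37 to 0.42 and the Actb set at 0.48, while Gapdh sets lie at 0.00 to 0.11.

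Markers of leukocytes moved in the same kidneys. The mean level of 12 measured markers, of 13 listed, was 7.80, 7.20, 8.12, 8.61 and 7.30 in the 96 week old kidneys, against 6.60, 6.62, 6.53 and 6.51 in the 14 week old kidneys. Of these 12 genes, with a median difference of 0.81, 4 passed as higher and none as lower, against 4.31% of all genes as higher: Jchain (5.02), which joins polymeric immunoglobulins, Lyz2 (2.54), the lysozyme of myeloid cells, Csf1r (0.45), the receptor for macrophage growth factor, and Tyrobp (1.17), an adaptor of myeloid receptors. After repeated quantile normalization, and also after cyclic loess, 3 of the 12 passed, and Tyrobp did not. Ptprc, the pan-leukocyte gene CD45, differed by 1.23 (adjusted p = 0.16 from limma), and the T cell genes Cd3e and Cd8a by 0.32 and 0.20. Itgam and Cd79a were dim, brighter than 19.9% and 15.4% of genes. Among the old kidneys, replicate 4 was highest both in Actb and in the leukocyte markers. Among the young kidneys, replicate 4 was highest in Actb (11.50) and lowest in the leukocyte markers (6.51). The leukocyte markers include Coro1a and Lcp1, which are also counted among the actin-binding proteins below. Markers of fibroblasts and smooth muscle lay at 7.48 to 7.76 at 96 weeks and 7.50 to 7.63 at 14 weeks. Of these 8 markers, 1 passed, Myh11, smooth muscle myosin, which fell by 0.48, against 2.4% of all genes passing as lower. The 8 did not move together, with differences of −0.48 to 0.41 and a median of 0.07. Markers of adipocytes lay at 6.08 to 6.42 at 96 weeks and 6.17 to 6.68 at 14 weeks. None of 9 kidney markers passed, and each was brighter than at least 53.8% of genes. The part of leukocytes in the Actb result was not tested.

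**Figure D3:**
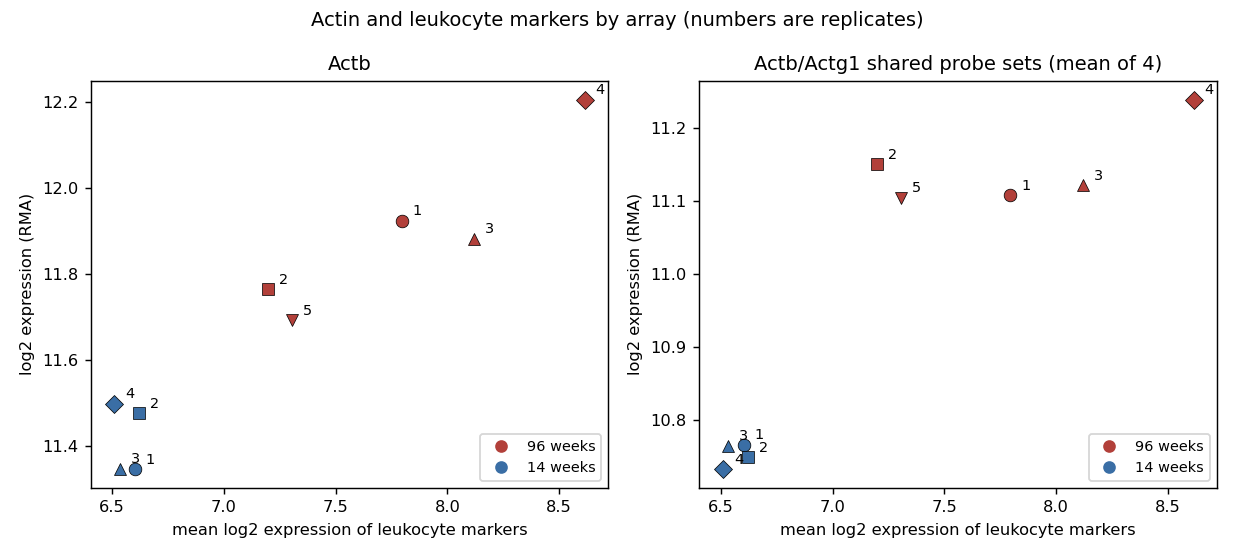
Level of Actb (log2) and mean of the shared actin probe sets (log2) against the mean log2 level of 12 leukocyte markers in each kidney, numbered by replicate, for 96 weeks (n = 5) and 14 weeks (n = 4). The old kidneys lie to the right, at 7.20 to 8.61 against 6.51 to 6.62, and above the young ones.

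Hprt encodes hypoxanthine phosphoribosyltransferase, the enzyme that returns hypoxanthine and guanine to the nucleotide pool. Its level was 10.53, 10.64, 10.72, 10.68 and 10.64 in the 96 week old kidneys, against 10.59, 10.70, 10.69 and 10.50 in the 14 week old kidneys. The ages overlapped throughout this range. The difference was 0.02 with a 95% confidence interval of −0.11 to 0.16 (adjusted p = 0.82 from limma), so a change of up to 1.11-fold in the upward direction could not be told from none.

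The 2 glycolytic references, Pgk1 and Gapdh, code for successive enzymes of that pathway. Pgk1, phosphoglycerate kinase, was at 12.09, 12.08, 11.90, 12.09 and 12.07 in the 96 week old kidneys, against 12.02, 12.01, 12.02 and 12.00 in the 14 week old kidneys. Replicate 3 at 96 weeks was below all the others, and the young kidneys had an SD of 0.012. The difference was 0.03 (95% confidence interval −0.08 to 0.15, adjusted p = 0.70 from limma). The other 4 old kidneys all lay above every young one, and without replicate 3 the difference was 0.07 (adjusted p = 0.31 from limma). Of 3 Pgk1 probe sets, 2 held the same values, and all gave differences of 0.03.

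Gapdh, glyceraldehyde-3-phosphate dehydrogenase, is read by 25 probe sets, each listed with 3 to 7 further symbols, so that none belongs to Gapdh alone. The 25 held 20 distinct sets of values, since 5 probe sets shared one and 2 shared another. Their differences were 0.00 to 0.11 with a median of 0.06, none passed (lowest adjusted p = 0.19 from limma), and 1 had an unadjusted p under 0.05. On the probe set with the largest difference the level was 12.60, 12.74, 12.66, 12.61 and 12.62 at 96 weeks, against 12.57, 12.56, 12.52 and 12.50 at 14 weeks. In 7 of the 20 the ages did not overlap, against 13% of all probe sets, and the 20 sets share a target.

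Ppia encodes cyclophilin A, a prolyl isomerase that helps proteins fold and is the target of cyclosporin. Its level was 11.90, 11.88, 11.84, 11.86 and 11.79 in the 96 week old kidneys, against 11.86, 11.84, 11.76 and 11.82 in the 14 week old kidneys. The ages overlapped and the difference was 0.03 (95% confidence interval −0.07 to 0.14, adjusted p = 0.64 from limma). None of 7 Ppia probe sets passed, with differences of −0.03 to 0.05.

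Ywhaz encodes 14-3-3 zeta, one of a family of adaptor proteins that bind phosphorylated partners. It was at 11.59, 11.61, 11.70, 11.68 and 11.52 in the 96 week old kidneys, against 11.63, 11.61, 11.55 and 11.57 in the 14 week old kidneys, with overlap. The difference was 0.03 (95% confidence interval −0.08 to 0.14, adjusted p = 0.71 from limma). A dimmer Ywhaz probe set gave −0.13 (adjusted p = 0.19 from limma), so the 2 sets differed in sign.

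Tbp and Polr2a belong to the transcription machinery, Tbp as the TATA-binding protein and Polr2a as the largest subunit of RNA polymerase II. Tbp was at 8.33, 8.33, 8.36, 8.39 and 8.31 in the 96 week old kidneys, against 8.44, 8.39, 8.36 and 8.33 in the 14 week old kidneys. Polr2a was at 9.71, 9.89, 9.62, 9.71 and 9.63 in the 96 week old kidneys, against 9.71, 9.76, 9.75 and 9.71 in the 14 week old kidneys. Both overlapped between ages. The differences were −0.04 for Tbp (95% confidence interval −0.14 to 0.06, adjusted p = 0.58 from limma) and −0.02 for Polr2a (95% confidence interval −0.15 to 0.12, adjusted p = 0.86 from limma). Polr2a held an identical value on 4 arrays, and 16.1% of all genes held one value on at least 4 arrays.

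The 6 genes other than Actb had confidence intervals that lay together within −0.15 to 0.16, that is within 0.899-fold and 1.11-fold. This held for the values as deposited, on the brightest probe set per gene with all arrays, and not under every other setting. On the dimmer Ywhaz probe set the interval was −0.256 to −0.002 (unadjusted p = 0.047, adjusted p = 0.19 from limma). Without replicate 1 at 14 weeks the interval of Polr2a reached down to −0.183 and that of Pgk1 up to 0.171. Without replicate 2 at 14 weeks that of Hprt reached up to 0.194. The difference of Tbp was −0.13 after repeated quantile normalization (95% confidence interval −0.23 to −0.02, adjusted p = 0.14 from limma) and −0.10 after cyclic loess (−0.21 to 0.00, adjusted p = 0.23 from limma). The interval of Polr2a was −0.195 to 0.039 after repeated quantile normalization and −0.189 to 0.045 after cyclic loess. That of Hprt reached down to −0.158 after repeated quantile normalization. The median difference of the 7 members was 0.03, against −0.03 over all genes, and their median size of difference was 0.033, against 0.111 over all genes. Brighter genes passed as higher more often. When genes were split by signal into 10 bins of equal size, the median difference was 0.03 in the brightest bin, where 11.8% passed as higher, and −0.07 in the dimmest, where 0.1% did. All members except Tbp are in the brightest bin. Relative to the median of its own bin, Actb was 0.45 higher, Tbp differed by −0.11, Polr2a by −0.05 and the other 4 by −0.01 to 0.00.

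Steadiness was compared as the SD over all 9 kidneys. It was 0.041 for Tbp, 0.044 for Ppia, 0.058 for Ywhaz, 0.061 for Pgk1, 0.077 for Hprt, 0.079 for Polr2a and 0.29 for Actb. Among 9969 genes at or above the median signal, the SD of Tbp was larger than that of 2.81% and the SD of Actb larger than that of 93.1%, and the median SD was 0.127. The SD of Ppia was larger than that of 3.71% and the SD of Polr2a larger than that of 18.9%. The highest Actb level was 1.81 times the lowest. The geNorm measure M, the mean SD of a gene's log2 ratios to the other members, is lower for a steadier gene. It was 0.288 for Actb and 0.103 to 0.128 for the other 6. When the least steady gene was dropped in turn, Actb went first, then Hprt, Polr2a, Pgk1 and Tbp, which left Ppia and Ywhaz with an M of 0.0503. The order rests on the brightest probe set of each gene. The dimmer Ywhaz probe set had an SD of 0.096, above those of Hprt and Polr2a, so the place of Ywhaz depends on the probe set. In all 6 pairs with Actb the ratio differed between ages by 0.44 to 0.51 without overlap, and in none of the 15 pairs without Actb did the ages separate. These are descriptions of the same values as above and not further tests.

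**Figure D4:**
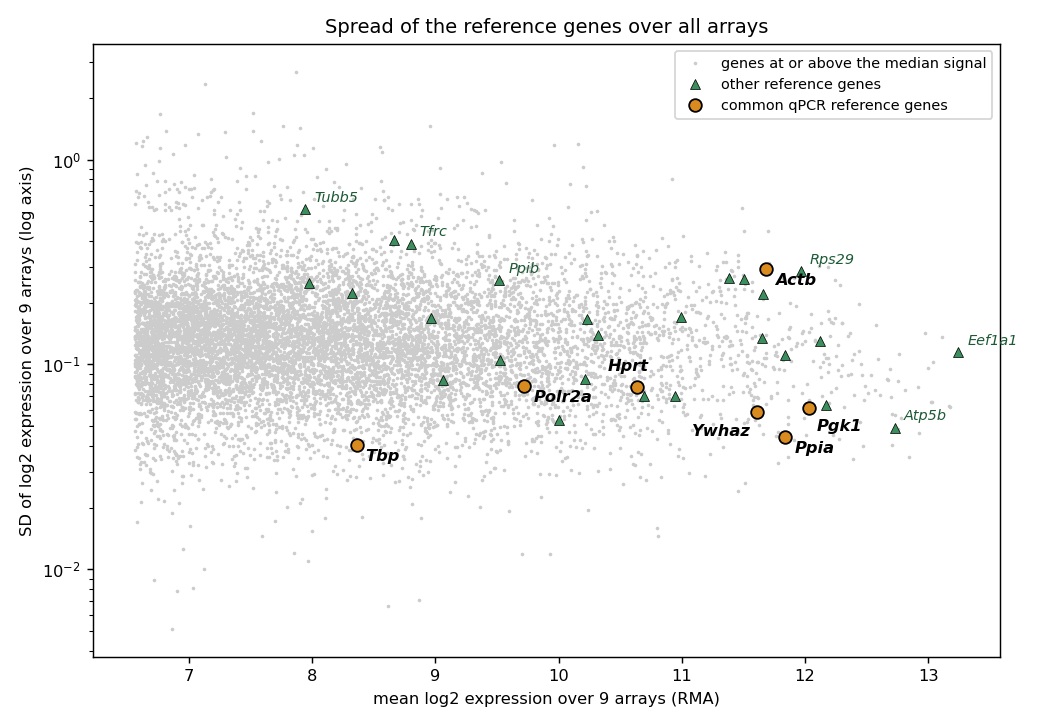
SD over 9 kidneys (log2 values, on a log axis) against mean log2 level (horizontal axis) for all genes at or above the median signal (grey points), with the 7 measured reference genes (orange circles) and other genes used as references (green triangles). Actb has an SD of 0.29 and lies above 93.1% of these genes, and the other 6 are at 0.079 or below, under the median of 0.127.

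The mean of Actb and Hprt, the pair used in the study, was 11.23, 11.20, 11.30, 11.44 and 11.16 in the 96 week old kidneys, against 10.97, 11.09, 11.02 and 11.00 in the 14 week old kidneys. The ages did not overlap and the difference was 0.25, or 1.19-fold. Over the 7 measured genes the mean differed by 0.08, and without Actb by 0.01.

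What a reference does to a measured gene was worked out for Fabp1, Havcr1 and Lcn2, damage markers that the study also measured by qPCR. Only array values, already normalized between arrays, were used, so the qPCR results of the study were not examined. For Lcn2 the study also reported an increase by in situ hybridization and by immunoblot scaled to beta tubulin. Subtraction of a reference shifts every gene by the age difference of that reference, so the shifts below follow from the values above. The study reported these markers as increased from its arrays, so the tests below are not independent of that report. Fabp1, a fatty acid carrier of the proximal tubule, was at 7.22, 6.26, 7.55, 7.23 and 6.74 in the 96 week old kidneys, against 5.42, 4.97, 4.98 and 5.42 in the 14 week old kidneys. Its difference was 1.80 with no reference, 1.78 with Hprt, 1.55 with the Actb and Hprt mean and 1.33 with Actb alone, that is 3.49-fold, 3.44-fold, 2.94-fold and 2.51-fold. After subtraction of the Actb and Hprt mean, the ages differed for Fabp1 (exact two-sided permutation p = 0.0079, the smallest that 126 splits can give, and 0.024 adjusted over 6 tests). With Actb alone the exact p was 0.016 (0.032 adjusted). By the limma fit over all genes, with no reference, Fabp1 passed (adjusted p = 0.0048), while Havcr1 (adjusted p = 0.12) and Lcn2 (adjusted p = 0.079) did not.

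Havcr1, the gene of the injury molecule Kim1, was at 6.40, 6.40, 9.47, 7.25 and 6.60 in the 96 week old kidneys, against 5.67, 5.71, 5.64 and 5.95 in the 14 week old kidneys. Its difference was 1.48 with no reference, 1.23 with the Actb and Hprt mean (exact permutation p = 0.024, 0.024 adjusted) and 1.01 with Actb alone (exact permutation p = 0.056, 0.056 adjusted). Lcn2, the gene of the iron-carrier binding protein Ngal, was at 6.90, 7.06, 9.68, 7.52 and 7.20 in the 96 week old kidneys, against 6.44, 6.05, 5.80 and 6.08 in the 14 week old kidneys. For Lcn2 the difference was 1.58 with no reference, 1.33 with the pair (exact permutation p = 0.016, 0.024 adjusted) and 1.10 with Actb alone (exact permutation p = 0.040, 0.048 adjusted), where the ages overlapped. Both markers peaked in replicate 3 at 96 weeks, and without this kidney the differences relative to the pair were 0.68 for Havcr1 and 0.84 for Lcn2.

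**Figure D5:**
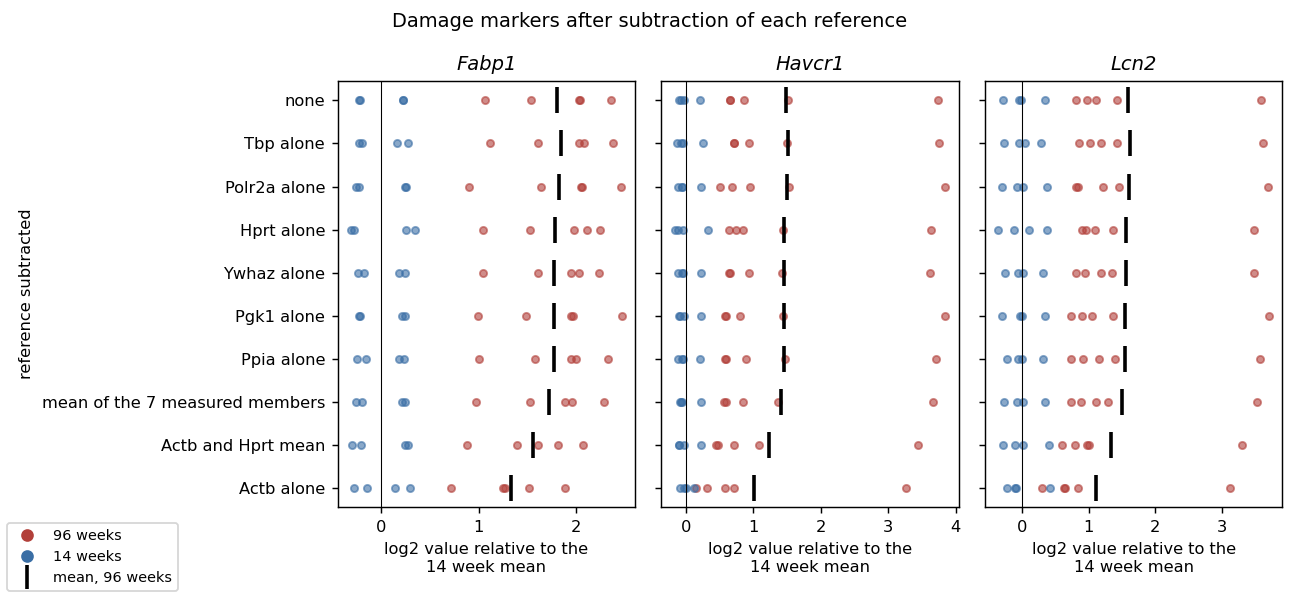
Level of Fabp1, Havcr1 and Lcn2 (log2, relative to the 14 week mean) after subtraction of each reference gene or mean, in kidneys at 96 weeks (n = 5) and 14 weeks (n = 4); black ticks are the 96 week mean. Values with Actb alone lie furthest to the left, at means of 1.33, 1.01 and 1.10, against 1.80, 1.48 and 1.58 with no reference.

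The families of the reference genes were compared with them. Of 35 measured genes listed as actin-binding proteins, 9 passed as higher and none as lower, against 4.31% of all genes as higher, with a median difference of 0.23. They include Capg (1.02), which caps filament ends, Pfn1 (0.41), which hands monomers to filaments, Coro1b (0.53) and Arpc4 (0.51), a subunit of the Arp2/3 complex that branches filaments. After repeated quantile normalization 5 of the 35 passed and after cyclic loess 6. The 35 also hold Srf, the gene of serum response factor, which is a transcription factor (0.06, adjusted p = 0.38 from limma). Of 7 other genes of the actin family, Actl6a passed (0.34), a subunit of chromatin remodelling complexes, and did not after repeated quantile normalization or cyclic loess. The median of these 7 was 0.14. Acta2, smooth muscle actin, had a difference of 0.33 (adjusted p = 0.095 from limma).

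For the counts that follow, 4.31% of all genes passed as higher and 2.4% as lower, and 11.8% passed as higher in the brightest bin. Among 12 further subunits of RNA polymerase II, 4 passed as higher and none as lower, with a median of 0.19: Polr2j (0.39), Polr2f (0.53), Polr2g (0.42) and Polr2d (0.30), of which Polr2j and Polr2g passed after repeated quantile normalization. Of 23 TBP-associated and general factors, Gtf2f2 (0.50) and Taf10 (0.31) rose and Taf13 fell by 0.23, with a median of 0.03. Of 12 cyclophilins, Ppib (0.45) and Ppic (0.29), both of the secretory pathway, and Ppil3 (0.33) passed as higher and none as lower, with a median of 0.14. In Ppig (−0.26, adjusted p = 0.081 from limma) and Ppwd1 (−0.16, adjusted p = 0.12 from limma) every old kidney lay below every young one, and Ppwd1 passed as lower after repeated quantile normalization (−0.24, adjusted p = 0.044 from limma). Without overlap, 5 of the 12 cyclophilins were higher and 2 lower, against 7.49% and 5.79% of all genes. Of 6 further 14-3-3 genes, Ywhah rose (0.47), with a list median of 0.09, but did not pass after repeated quantile normalization or cyclic loess. Of 14 glycolytic enzymes, Pfkl (0.39), liver phosphofructokinase, and Aldoa (0.39), aldolase A, rose, also after each of 3 other scalings, and the median was 0.20. None of 11 genes of purine metabolism around Hprt passed, and 4 had an unadjusted p under 0.05, against 28.5% of all genes. Their median was 0.10.

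Of 26 other genes that have been used as references, 8 passed as higher and none as lower, against 4.31% of all genes as higher and 11.8% in the brightest bin, with a median of 0.12. Without overlap, 9 of the 26 were higher and 1 lower, against 7.49% and 5.79% of all genes. The lower one was Ube2d2a, a ubiquitin-conjugating enzyme (−0.14, adjusted p = 0.16 from limma). Its highest old kidney and lowest young kidney were nearly equal, at 9.532 and 9.534. Rps18 (0.48), Rps29 (0.51) and Rplp0 (0.46) are ribosomal proteins, Eef2 (0.30) is an elongation factor, Gusb (0.38) is a lysosomal enzyme and Tubb5 (0.84) is a tubulin, with Ppib and Aldoa counted above. Of these 8, 6 passed after repeated quantile normalization. The smallest SDs over the 9 kidneys were those of Atp5b (0.049), a subunit of ATP synthase, Nono (0.054), a nuclear RNA-binding protein, Canx (0.063), a chaperone, Vcp (0.070), an ATPase that unfolds proteins, and Rer1 (0.070), a sorting receptor of the Golgi. The largest were those of Tubb5 (0.573), Tuba1a (0.406), also a tubulin, Tfrc (0.389), the transferrin receptor, Rps29 (0.286) and Rps18 (0.266).

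Genes that followed each member over the 9 kidneys were picked by the highest Pearson correlation among genes at or above the median signal, as a description. They were Psenen (r = 0.981), Txndc5 and Phf5a for Actb, Rnf138 (r = 0.937), Stau2 and Kctd6 for Hprt, and Zfp330 (r = 0.915), Hnrnpd and Phf14 for Tbp. For Ppia they were Stat5b (r = 0.917), Tars2 and Tmem140, and for Ywhaz Peak1 (r = 0.906), Gins2 and Taok3. For Pgk1 they were Slc22a7 (r = 0.968), Sgk2 and 9030619P08Rik, and for Polr2a Dus3l (r = 0.947), Cdkl1 and Med12. All these correlations are over the same 9 arrays and include the difference between the ages. Pgk1 was lowest in replicate 3 at 96 weeks (11.90), apart from the other kidneys. How far its correlations depend on this kidney was not tested.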

How the data were processed

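RNA of 9 mouse kidneys, 5 at 96 weeks and 4 at 14 weeks, was hybridised to Affymetrix Mouse Gene 1.0 ST arrays. The deposited values are log2 levels of 35557 probe sets, which the authors made by RMA (Affymetrix Power Tools 1.12.0) with quantile normalization. No source used here gives a genome build, a scan date or signal over background, and precision is limited by the number of arrays. Of the probe sets, 21789 carried 1 gene symbol, 1621 several and 12147 none, and the brightest set per symbol gave 19938 genes, with no filter on dim genes.

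The fit was lmFit with eBayes (limma 3.58.1, R 4.3.3), with Benjamini-Hochberg adjustment across genes and a threshold of 0.05, and was tested on simulated data. Exact permutation tests used Python 3.11.15 and scipy 1.17.1. Named were the members, the 3 damage markers, at most 4 passing genes per list, the 5 smallest and 5 largest SDs among other reference genes and the 3 genes most like each member. Ptprc, Cd3e, Cd8a, Itgam, Cd79a, Coro1a, Lcp1, Srf, Acta2, Ppig, Ppwd1 and Ube2d2a were named after their values were seen. Members and lists were chosen with earlier results of these data known. Other settings changed the test, the weights of arrays, the dim genes, the scaling, the probe set per gene and the arrays included, and 1 had a replicate block. Fits of every probe set and differences relative to genes of like signal were added after seeing the data.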

Additional observations from a re-analysis of the deposited data

Results flagged for a closer look

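In sets of 4 or 5 kidneys, 6 of 32 groups examined held a kidney far from the others relative to the range of its group, where about 5% of groups would by chance, and several of these sets share sequence or kidneys. The check was extended to the damage markers, shared actin probe sets and leukocyte marker level after the members, so the groups were not fixed in advance. Among the members only Pgk1 at 96 weeks was flagged. Replicate 3 at 96 weeks was low in Pgk1 (11.90) and high in Havcr1 (9.47) and Lcn2 (9.68). Replicate 4 at 96 weeks was high on 2 of the 4 probe sets shared by Actb and Actg1, at 11.52 and 11.44. On the first of these, replicate 4 at 14 weeks was low, at 11.01.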

How the results depend on the processing

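Actb passed in 17 of 20 other settings, with differences of 0.38 to 0.53, and no other member passed in any. The count of members called was 0 by the methods' t-test and 0 to 1 when 1 kidney was left out; it was 0 without replicate 1 or replicate 3 at 14 weeks. Across all genes the count was 367 by the methods' t-test, against 1339, and 528 to 1135 with 1 kidney left out. The same replicate numbers did not pair the mice (correlations of deviations −0.037 to 0.076 over 4 pairs). With the replicate block, 368 genes passed and Actb had a difference of 0.53 (adjusted p = 0.042 from limma). Repeated quantile normalization gave 484 higher and 505 lower genes, and cyclic loess 562 and 379, against 860 and 479. The Actb and Hprt mean differed by 0.18 to 0.28 in all 19 other settings. Relative to Actb alone, Havcr1 differed by 1.01 and did not pass (adjusted exact p = 0.056). With 1 kidney left out, differences relative to the pair were 1.42 to 1.72 for Fabp1, 0.68 to 1.43 for Havcr1 and 0.84 to 1.52 for Lcn2, and none of the 3 passed without a 14 week old kidney, where the smallest exact p is 0.018 before adjustment. A mean of all 9 members could not be formed, since Actg1 and Gapdh had no probe set of their own, and the mean of the 7 measured was used. The number of arrays limits how small a difference can be told from none, and signal over background was not known.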
